A study of Drosophila melanogaster with 2 samples.

Results

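Intergenic summits that lie close to a coding promoter but outside it made up 611 of the 7029 reproducible peaks of a chromatin immunoprecipitation sequencing (ChIP-seq) experiment on the protein of the gene CG15269 in Drosophila melanogaster embryos. A peak was taken when its summit lay in no annotated gene, was more than 500 bp from every annotated transcription start site (TSS) and had a protein-coding TSS at most 5000 bp away. The samples form 1 group of 2 biological replicates, numbered 2 and 3, of 1 transgenic line in which GFP is fused to the C terminus of CG15269. Whole embryos of both sexes were pooled, with an age of 6 to 18 h in the source name and another value in the age field. The description names an anti-GFP immunoprecipitation, whereas the antibody field names CG15269, and sonicated chromatin had fragments of 200 to 800 bp. There is no untreated or mutant group, the control libraries named in the labels are not analysed here, and all tissues of the embryo contribute to 1 peak list, so the cells in which a site was occupied cannot be told apart.

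DNA between genes holds enhancers, which bind transcription factors and raise the activity of promoters at a distance, and insulators, which limit which promoter an enhancer can reach. In Drosophila many such elements lie within a few kilobases of the gene they act on, and insulator proteins such as CTCF, BEAF-32 and Su(Hw) recognise short sequence motifs there. The summits are compared below with far intergenic summits (471, more than 5000 bp from a coding TSS), with intronic summits (3009) and with promoter summits (2755, within 500 bp of any TSS), all from the same list. Another 183 summits were exonic.

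The DNA under the strongest near intergenic summits is shown first, because it carries what these sites share and where they differ. Each line gives the plus strand from 50 bp before to 50 bp after the summit, taken from RefSeq (genome release 6, which has the coordinates of dm6), for the 8 strongest summits outside 1 chromosome arm, whose sequence is not printed. Capitals mark runs of 6 or more A or T bases. The windows are chr3R:16222441-16222541 and chr3R:16224452-16224552 at tara, chrX:493972-494072 at CG17896, chr3R:14053555-14053655 at foxo, chr3R:12403074-12403174 at DNAlig3, chr2L:9567456-9567556 at jp, chrX:2124053-2124153 at ph-d and chr2L:1649401-1649501 at chinmo.
tara, 3160 bp upstream: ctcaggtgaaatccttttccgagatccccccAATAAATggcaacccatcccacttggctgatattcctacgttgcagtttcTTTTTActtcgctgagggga
CG17896: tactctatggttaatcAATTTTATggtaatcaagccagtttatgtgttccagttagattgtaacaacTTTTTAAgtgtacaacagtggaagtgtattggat
tara, 1149 bp upstream: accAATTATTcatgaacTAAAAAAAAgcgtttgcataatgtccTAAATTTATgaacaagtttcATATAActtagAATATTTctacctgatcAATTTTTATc
foxo: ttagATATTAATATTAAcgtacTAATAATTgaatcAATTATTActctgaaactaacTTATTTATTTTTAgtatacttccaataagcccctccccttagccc
DNAlig3: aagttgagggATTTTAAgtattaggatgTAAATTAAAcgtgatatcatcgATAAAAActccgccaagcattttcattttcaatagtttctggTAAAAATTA
jp: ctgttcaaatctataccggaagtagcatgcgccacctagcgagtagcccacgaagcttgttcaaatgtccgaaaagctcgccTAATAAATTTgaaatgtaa
ph-d: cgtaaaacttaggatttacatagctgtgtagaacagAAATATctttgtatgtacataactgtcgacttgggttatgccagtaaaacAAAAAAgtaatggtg
chinmo: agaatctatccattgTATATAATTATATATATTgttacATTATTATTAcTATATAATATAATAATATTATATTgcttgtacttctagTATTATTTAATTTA
The A+T content of these windows ran from 52.5% at the stronger tara summit and 56.4% at jp to 86.1% at chinmo. Strong signal was therefore found on DNA of very different composition, with 6 such runs in the other tara window and 1 at jp.

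The jp window also holds a match to the consensus of CTCF, the zinc finger insulator protein, which was found at 14 of the 611 summits. The letters searched were AGATGGCGC and AGGTGGCGC on either strand within 100 bp of the summit, a search chosen after the data were seen. The 6 strongest of these summits outside that arm are given as 51 bases of the plus strand centred on the match, with the match in capitals. The windows are chr2L:9567463-9567513 at jp, chr3R:16497502-16497552 at Gr89a, chrX:10832492-10832542 at sbr, chr3R:5126988-5127038 at RabGGTa, chr3L:4239603-4239653 at Sqor and chr3L:14111512-14111562 at Sox21a.
jp: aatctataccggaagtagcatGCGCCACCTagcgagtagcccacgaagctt
Gr89a: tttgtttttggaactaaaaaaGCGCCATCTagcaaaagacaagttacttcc
sbr: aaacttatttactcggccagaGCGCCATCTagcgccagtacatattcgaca
RabGGTa: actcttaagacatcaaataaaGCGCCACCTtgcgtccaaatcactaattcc
Sqor: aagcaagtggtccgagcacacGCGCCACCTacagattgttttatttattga
Sox21a: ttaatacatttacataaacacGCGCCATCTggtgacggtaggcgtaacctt
In all 6 windows the match reads on the minus strand as the searched letters. Their A+T content ran from 47.1 to 64.7%, where the sequence that meets the rule had 59.6%. Only the Gr89a window lay above that value, and each window is centred on the match itself.

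The strongest near intergenic summit lay 3160 bp upstream of tara (FBgn0040071), the gene of the transcriptional co-regulator Taranis, in the peak at 16221955 to 16222717 on 3R. Its signal was 3077 in the IDR list, with 1802 in replicate 2 and 1288 in replicate 3, and it ranked 56 of 7029. The tara summit 1149 bp upstream had a signal of 2346 (replicates 1304 and 1051) and ranked 123. A further tara summit at 3778 bp upstream had 1155, with 287 in replicate 2 and 828 in replicate 3, so that its replicates differed more than those of its neighbours. The signal is the value that the authors deposited for each peak, and neither the labels nor the files say what its scale is. All 3 lie in intergenic gaps that a non-coding gene, lncRNA:CR45643, separates. No IDR summit lay within 500 bp of the tara start from which these distances are measured, and the IDR summit that counts tara as a bound gene lies at another of its annotated starts.

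**Figure D1:**
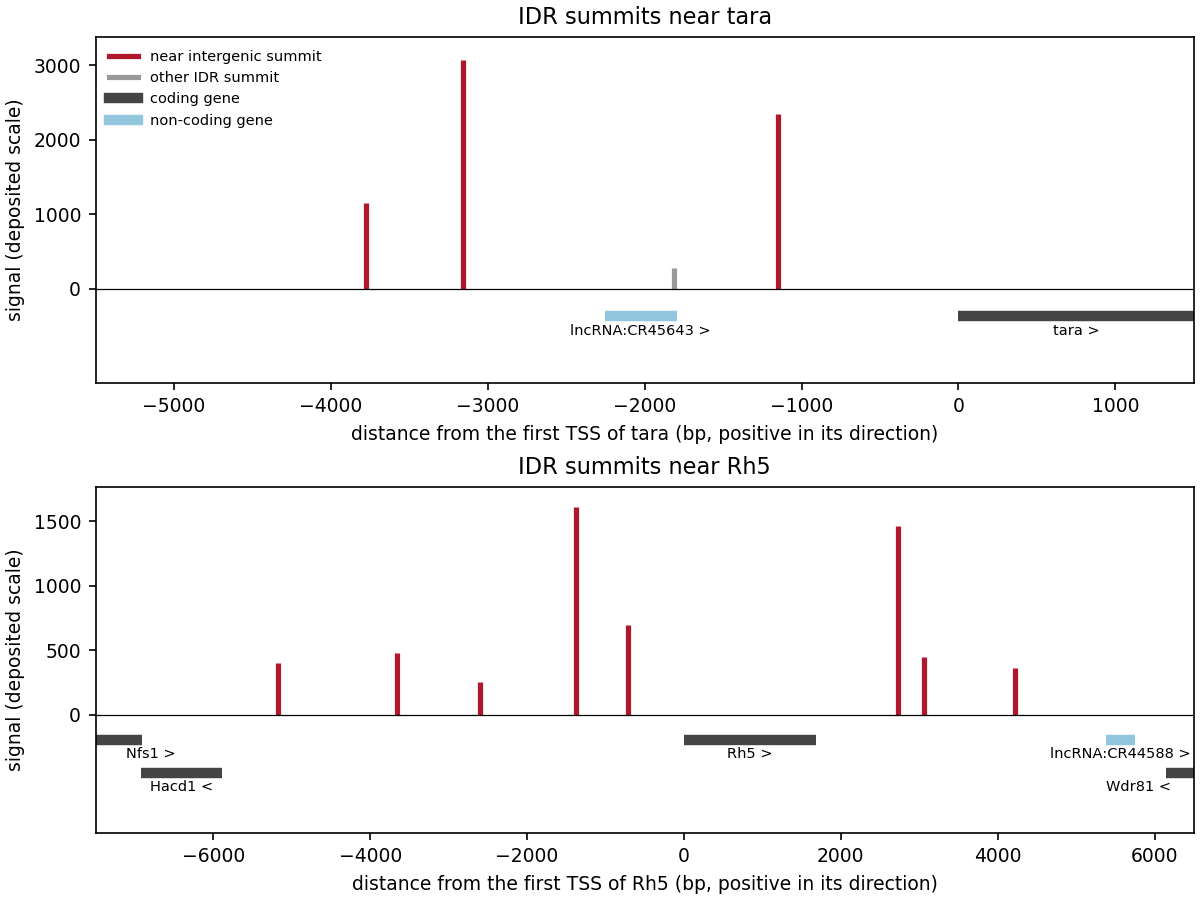
IDR summits around tara (top) and Rh5 (bottom), with the distance from the gene's first TSS in bp on the x axis and the deposited signal on the y axis; red lines are near intergenic summits, grey lines other IDR summits, and the bars below are coding genes (dark) and non-coding genes (blue) with their direction. The 3 red tara summits reach 1155, 3077 and 2346, while the promoter summit between them has 275, and 8 red summits flank Rh5 on both sides.

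The summit ranked next, with signal 2876 (replicates 1527 and 1357), lay on 2R at 22802754 to 22803186, in the gap where blw, the gene of an ATP synthase subunit, and CycB, the gene of the mitotic cyclin B, converge. It lay 3340 bp downstream of the CycB start and past the end of that gene. Convergent gaps also held the DNAlig3 summit (2114, replicates 1131 and 997), which lay between Sol1 and the cytochrome P450 gene Cyp9f2, 1285 bp upstream of the DNA ligase gene after which it is named. The nearest TSS of such a summit is therefore not always that of a gene bordering the gap.

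A summit 3340 bp upstream of foxo, the gene of the forkhead factor of insulin signalling, had 2305 (replicates 1110 and 1159). One at 817 bp upstream of ph-d, a Polycomb group gene, in the gap between ph-d and its sister gene ph-p, had 1913 (replicates 753 and 1150). The value in replicate 3 exceeded that in replicate 2 there, on lists whose scales may differ, as at chinmo, the gene of a BTB zinc finger factor of neuronal timing, where a summit 1807 bp upstream had 1841 (replicates 695 and 1123). The summit at jp, the gene of junctophilin, which ties membranes of muscle cells together, had 2114 (replicates 1107 and 1007), and that of CG17896, 527 bp from its TSS, had 2438 (replicates 1186 and 1260).

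The rest of the 25 strongest summits had signals down to 1101. They included summits at sp3 (1815, in the gap between the homeobox gene C15 and sp3), CG3149 (1609), Rh5 (1608 and 1462), CG31668 (1550), stck and by, the genes of the adhesion proteins PINCH and tensin (1429 and 1425), GV1 (1376, the strongest of 3L), CG11964 (1254), CG33453 (1212), Atf3, a bZIP factor gene (1180), Msr-110 (1136), slp2, a forkhead segmentation gene (1117, in the gap it shares with slp1), RasGAP1, a Ras regulator gene (1105), and fz, the gene of a Wnt receptor (1101). The Msr-110 summit, 566 bp upstream, has a stronger promoter summit of the same gene beside it, 361 bp upstream, with a signal of 1362. Both have the value 734 in replicate 3, with 323 and 677 in replicate 2. Whether they are separate sites was not tested. Chromosome 4 held 3 of the 611 summits, the strongest of them at the homeobox gene zfh2 (624, 3912 bp upstream). Of these 25 summits 22 were upstream of the nearest coding TSS. All 25 were among the 7029 strongest peaks of both replicates, and 10 had a nearest coding gene with an IDR summit at one of its annotated starts.

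Signals of the 611 summits ran from 155 to 3077, with a median of 275 and quartiles of 194 and 437. In replicate 2 the values ran from 24.0 to 1802 with a median of 136, over 601 matched summits, and in replicate 3 from 36.2 to 1357 with a median of 138, over 608. Every one of the 611 was matched in at least 1 replicate list, a match that the making of the IDR list from those lists partly ensures. The largest ratio between the replicates' values and ranks was at nrv1, the gene of a sodium pump subunit, where a summit 520 bp upstream had 24.0 in replicate 2 (rank 26665) and 725 in replicate 3 (rank 354). In the opposite direction, the Sqor summit with the CTCF match had 302 in replicate 2 and 43.7 in replicate 3. The nrv1 summit has a promoter summit of the same gene beside it, 304 bp upstream, with 465 in replicate 2 and 1038 in replicate 3. Whether the low value at the nrv1 summit comes from how neighbouring summits were matched was not tested. Across the 598 summits matched in both lists the signals had a Spearman correlation of 0.701 and a Pearson r of 0.86, as a description of peaks that share the same 2 libraries. For far intergenic, intronic and promoter summits the Spearman values were 0.668, 0.755 and 0.795. Pearson r was 0.922, 0.949 and 0.948 in these classes, above the value for near intergenic summits.

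**Figure D2:**
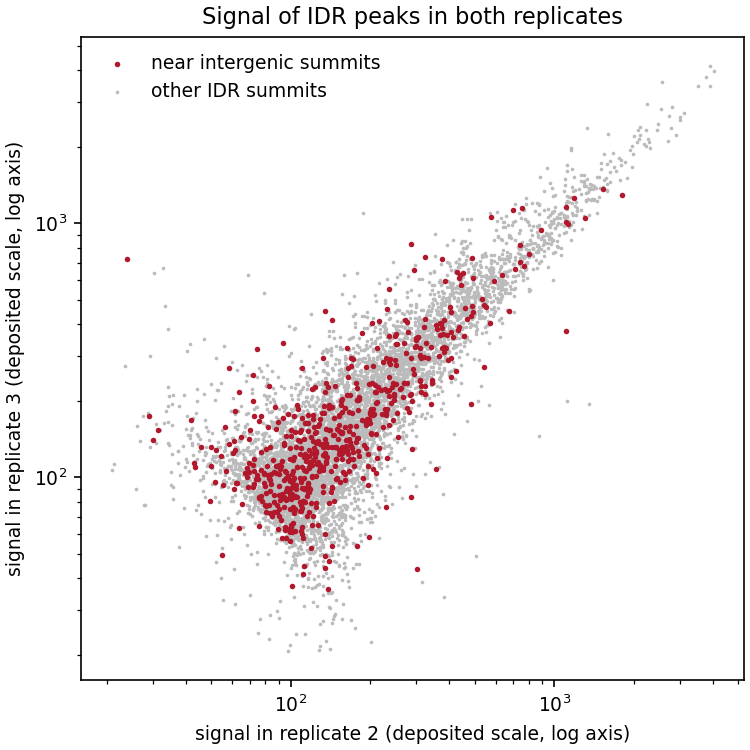
Signal of each IDR peak in replicate 2 (x axis) and replicate 3 (y axis), on the deposited scale with log axes, for near intergenic summits (red) and the other IDR summits (grey), where both lists hold a match. Most red points follow the grey ones up to the strongest, tara and CycB, and nrv1 stands at the upper left with 24.0 against 725.

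Of the 611 summits, 465 (76.1%, interval 72.5 to 79.4%) overlapped a peak among the 7029 strongest of both replicate lists, where the share over all IDR peaks was 77.8%. Another 65 did so in replicate 2 alone, 71 in replicate 3 alone and 10 in neither. The share was 74.5% for far intergenic, 77.9% for intronic and 78.8% for promoter summits, and no difference passed Fisher's exact test, with odds ratios of 1.09, 0.904 and 0.855 and adjusted p of 0.74, 0.489 and 0.232. Intervals here and below are exact 95% intervals for counting error only, and p-values over summits describe these libraries, since summits are not replicates. They are adjusted by the Benjamini-Hochberg method over 13 comparisons. With the 7029 strongest peaks of replicate 3 in place of the IDR list, the odds ratio against intronic summits was 0.77 (exact adjusted p = 0.0446). That value still counts overlap with the list of replicate 2, since peaks of replicate 3 overlap their own list by construction. Among the 3514 IDR peaks of highest signal, with overlap still counted in the 7029 strongest of each replicate, the odds ratio against intronic summits was 0.324 (exact adjusted p = 0.0228). Against far intergenic summits it was 0.528 (exact adjusted p = 0.457) and against promoter summits 1.07, and neither passed.

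Near intergenic summits were stronger than far ones and weaker than promoter summits. Their signal lay above the median of all IDR peaks, a split that takes 50% of the list by construction, at 280 of 611 (45.8%, interval 41.8 to 49.9%). Far intergenic summits passed it at 174 of 471 (36.9%, odds ratio 1.44, Fisher's exact test, adjusted p = 0.00913) and promoter summits at 1570 of 2755 (57.0%, odds ratio 0.638, adjusted p = 2.54e-06). Against intronic summits, with 46.8%, the difference did not pass (odds ratio 0.961, exact adjusted p = 0.776). The call against far summits was lost when summits had to lie 1000 bp from any TSS (odds ratio 1.23, exact adjusted p = 0.213). Only 2 of the 611 were among the 100 strongest IDR peaks and 56 among the 1000 strongest (5.6%, against 8.69% of the whole list).

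The same order was found in how many called peaks entered the IDR list. Among 30000 peaks called on both replicates together 23.4% did so, and 611 of the 3167 that meet the same rule (19.3%, interval 17.9 to 20.7%). The share was 14.0% of far intergenic peaks (odds ratio 1.47, Fisher's exact test, adjusted p = 5.15e-08), 37.4% of promoter peaks (odds ratio 0.399, adjusted p = 7.80e-78) and 20.5% of intronic peaks (odds ratio 0.929, adjusted p = 0.232). The IDR list holds the strongest of these peaks, so this restates the signal with a wider base. The strongest peak that meets the rule but is not in the list had 154, and the weakest of the 611 had 155.

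**Figure D3:**
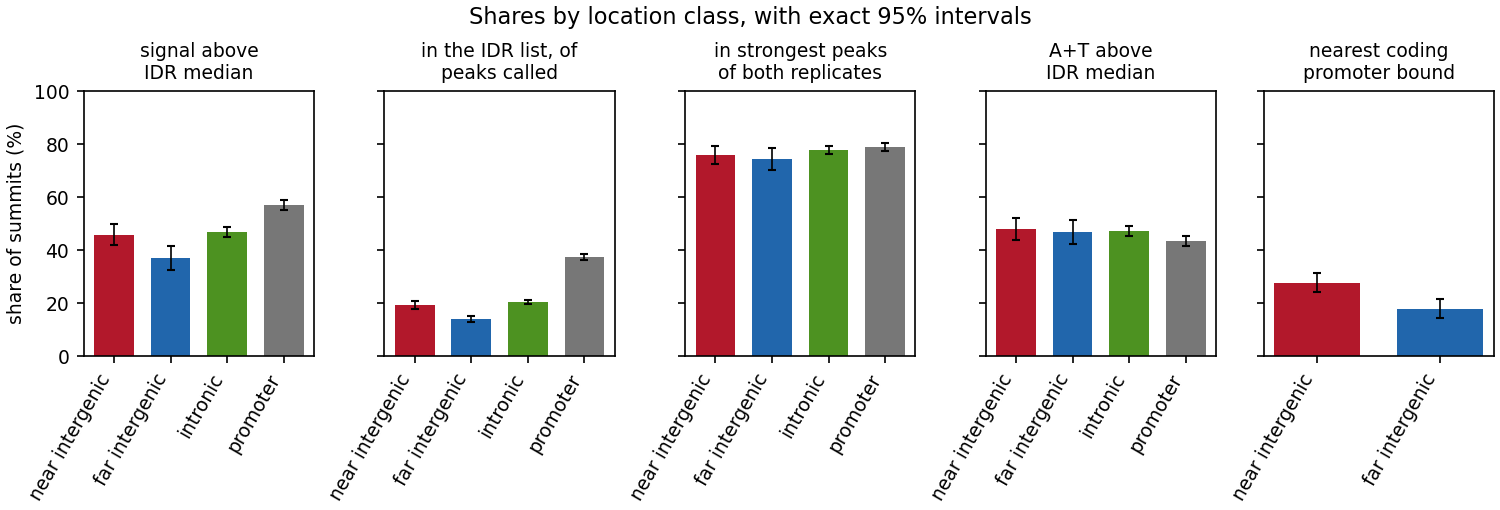
Share of summits (y axis, %) that meet each of 5 measures, for near intergenic summits (red, leftmost), far intergenic (blue), intronic (green) and promoter summits (grey), with exact 95% intervals as bars. Near intergenic summits stand between far and promoter summits for signal (45.8, 36.9 and 57.0%) and for entry into the IDR list (19.3, 14.0 and 37.4%), and the intervals overlap for agreement of both replicates.

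Position was described as a density, because the rule decides how much sequence can hold such a summit. The 12.6 Mb that meet the rule held 48.3 summits per Mb (interval 44.6 to 52.3), and the 23.6 Mb of far intergenic sequence held 19.9 (18.2 to 21.8), a rate ratio of 2.42 (exact binomial test, two-sided, adjusted p = 1.03e-46 over 6 rates). With summits and bases in soft-masked repeats left out the densities were 46.4 and 22.6, a ratio of 2.05. This matters because 144 of the 611 lay in masked sequence, while 20.4% of the near and 30.1% of the far sequence was masked. Whether reads map uniquely to either was not analysed here. These tests count summits as independent, although 210 of the 611 share a gap with another.

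Density was highest next to the promoter, on the upstream side. Sequence 500 to 1000 bp from the nearest coding TSS held 73.4 summits per Mb (147 summits) and sequence at 2000 to 5000 bp held 39.7 (291 summits), a ratio of 1.85 (interval 1.5 to 2.26, exact adjusted p = 1.86e-08). Upstream of a TSS the density was 53.0 (465 summits) and downstream, past the end of the gene, 37.7 (146 summits), a ratio of 1.41 (interval 1.17 to 1.71, exact adjusted p = 0.00045). The sides stood apart nearest the TSS, with 79.9 per Mb upstream and 25.3 downstream at 500 to 1000 bp, where the downstream value rests on 6 summits, and their intervals overlapped in every bin beyond. With a limit of 1000 bp from any TSS the ratio of the sides was 1.19 (exact p = 0.105). The Spearman correlation of signal with distance was -0.0562 across the 611, as a description.

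**Figure D4:**
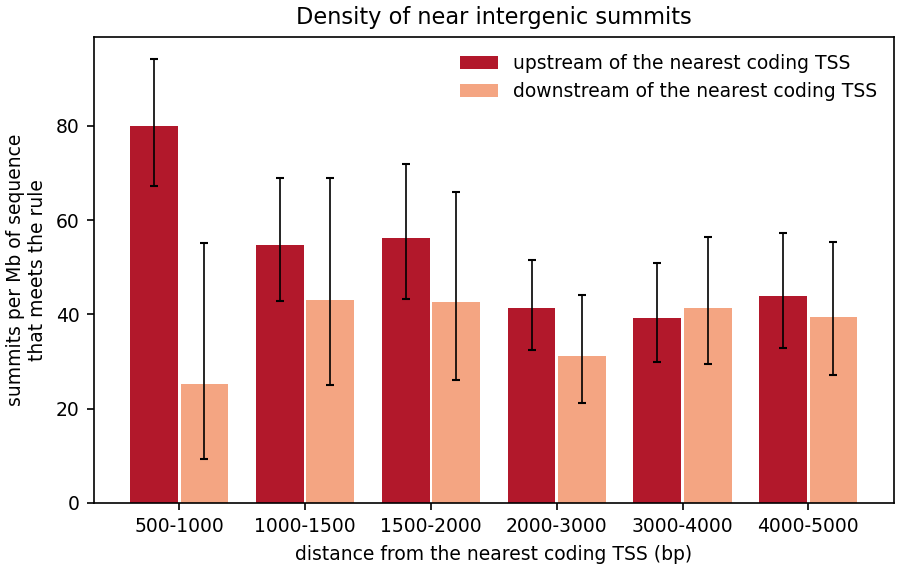
Near intergenic summits per Mb of sequence that meets the rule (y axis, from 0) by distance from the nearest coding TSS in bp (x axis), upstream (dark red) and downstream (light red), with exact Poisson 95% intervals. The upstream bar is highest at 500 to 1000 bp, with 79.9, and stands at 39.3 to 43.8 from 2000 bp on, where the intervals of both sides overlap.

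The orientation of the flanking genes went with the density too. Gaps between diverging genes, which hold the starts of both, had 59.3 summits per Mb (206 summits). Tandem gaps had 46.1 (308) and gaps between converging genes, which hold only gene ends, 39.1 (96). Divergent gaps exceeded convergent ones 1.52-fold (interval 1.18 to 1.95, exact adjusted p = 0.00102) and tandem ones 1.29-fold (1.07 to 1.54, exact adjusted p = 0.00725), and tandem against convergent gaps did not pass (1.18-fold, exact adjusted p = 0.161). The difference from tandem gaps was not called in the 3514 strongest peaks (1.22-fold, exact p = 0.15) or within 2500 bp (1.1-fold, exact p = 0.369). Divergent gaps have both ends near a TSS, and the part of distance in these ratios was not tested. No chromosome arm stood apart from the other arms, with rate ratios from 0.657 to 1.27 and exact adjusted p from 0.0757 upwards.

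The 611 summits filled 492 gaps and had 510 different nearest coding genes. Single summits filled 401 gaps, 67 gaps held 2 and 24 held 3 or more. The most, 5, lay in the gap of 5886 bp between Hacd1, a fatty acid elongation gene, and Rh5, the gene of a photoreceptor opsin, on 2L. Their positions from the Rh5 start were -5171, -3657, -2597, -1380 and -708 bp and their signals 402, 480, 251, 1608 and 695. Past Rh5 the next gap held 3 more, with 1462, 446 and 366. Replicates differed at several of these sites, for example 1107 in replicate 2 and 377 in replicate 3 at the strongest summit past Rh5, and 135 and 452 at the summit next to it. Both of these lie in neighbouring peaks, and no summit in the region was within 500 bp of a TSS.

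Gaps with 4 summits lay between robo2, an axon guidance receptor gene, and CG43401 (signals 229 to 447) and between wwk and CG15269, the gene of the tagged protein itself. That gap held its 4 summits 1936 to 4296 bp upstream of the CG15269 TSS with signals of 306 to 803. Among the gaps with 3 were those of chinmo (316 to 1841), stck (190 to 1429), CG31668 (290 to 1550), RasGAP1 (427 to 1105), CG5958 with CG5973 (380 to 977), vers (163 to 976), Ids (196 to 919) and Cyt-c1L (614 to 772), and the 2 adjoining gaps beside the gustatory receptor gene Gr93a (162 to 262, and 172 to 243). The signals in the Cyt-c1L gap were close to each other, while those at chinmo and stck had 1 strong summit beside weaker ones. Of the 611, 16 lay in a peak whose limits they share with another IDR summit, and 137 (22.4%) had another IDR summit within 1000 bp, against 22.1 to 24.3% in the far intergenic, intronic and promoter classes.

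The nearest coding gene of a near intergenic summit was in some cases bound at one of its annotated starts as well, not always the start nearest to the summit. An IDR summit stood at most 500 bp from a TSS of the nearest coding gene at 168 of 611 summits (27.5%, interval 24.0 to 31.2%), where 20.6% of all coding genes are bound in this sense. At far intergenic summits the share was 83 of 471 (17.6%, interval 14.3 to 21.4%), an odds ratio of 1.77 (Fisher's exact test, adjusted p = 0.000495). The odds ratio was 1.36 without replicate 2 (exact adjusted p = 0.0897) and 1.46 at 1000 bp from any TSS (exact adjusted p = 0.073), and neither passed. Summits whose nearest gene was bound had a median signal of 291 and lay a median of 1524 bp from the TSS, and the other 443 had 267 and 1998 bp.

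Summits were richer in A and T than the DNA around them. The 51 bp at the summit had a mean A+T content of 68.0% ± 10.6, and the 51 bp centred 400 bp farther from the coding TSS had 57.8% ± 11.9 (SD over 611 summits). It was higher at the summit in 441 pairs, higher in the flank in 150 and equal in 20 (exact sign test, p = 3.50e-34). The profile was narrow. In the direction in which the nearest coding gene is transcribed, the mean was 62.2% at 100 bp and 56.7% at 200 bp. The latter is below the 59.6% of all sequence that meets the rule. Exceptions stood among the strongest, with 41.2% at slp2, 47.1% at jp and 49.0% at the leading tara summit, beside 90.2% at chinmo and 82.4% at foxo.

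**Figure D5:**
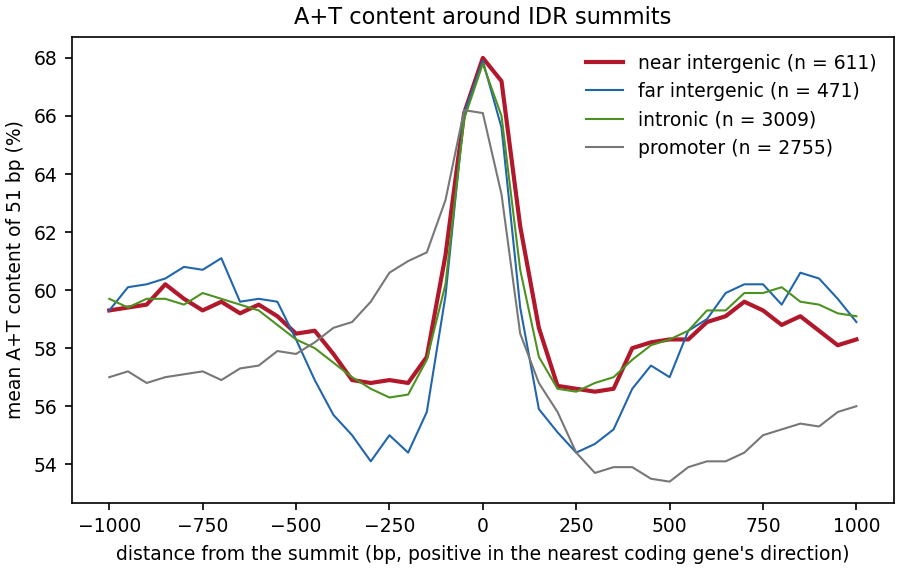
Mean A+T content of 51 bp (y axis, %) by distance from the summit in bp (x axis) for near intergenic (red), far intergenic (blue), intronic (green) and promoter summits (grey). Positive distances run in the direction in which the nearest coding gene is transcribed. All 4 lines peak at or next to the summit, the red one at 68.0%, and the red line stands at 56.8% at -200 and -300 bp and at 56.7 and 56.5% at 200 and 300 bp, where the far intergenic line lies lower, at 54.1% at -300 bp.

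A+T content was above the median of all IDR peaks at 293 of 611 summits (48.0%), beside 45.6% of the whole list because of ties. The share was 46.9% for far intergenic, 47.3% for intronic and 43.3% for promoter summits, and none of these differences passed (odds ratios 1.04, 1.03 and 1.21, Fisher's exact test, adjusted p = 0.79, 0.79 and 0.083). The Spearman correlation of signal with A+T content was 0.00933 across near intergenic summits, as a description, and the values for far intergenic, intronic and promoter summits were -0.00239, 0.195 and 0.35. Among the 3514 strongest peaks the mean was 67.8% ± 10.1 at 280 near intergenic summits and 69.4% ± 11.0 at 1570 promoter summits, and among the remaining peaks 68.2% ± 11.1 at 331 and 61.7% ± 12.7 at 1185 (SD). In the 3514 strongest, A+T content was split at the median of those peaks and not of the whole list. There the odds ratio against promoter summits was 0.678 (exact adjusted p = 0.0106), and that against intronic summits 0.714 (0.0228), both with the direction turned. With the window widened to 100 bp on each side of the summit the ratio against promoters was 1.25 (exact adjusted p = 0.0301), and at 1000 bp from any TSS 1.33 (0.0183).

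Known consensus sequences were counted within 100 bp of the summit and within 100 bp of a point 400 bp away, on both strands, as presence or absence. Of 24 sequences 2 passed (8.33%, exact sign test), and 4 passed without replicate 3. TATAAA, the letters of the TATA box, stood at 252 summits (41.2%) against 126 flanks (20.6%, exact adjusted p = 2.08e-12), with 24.4% of tiles of the same length from the sequence that meets the rule and 38.2% of the other IDR summits. TAATTA, the core bound by homeodomain proteins, stood at 131 and 87 (21.4 and 14.2%, exact adjusted p = 0.0186), with 15.6% of tiles and 18.5% of the other IDR summits. This call was lost without replicate 3 (exact adjusted p = 0.0796), among the 3514 peaks of highest signal (0.372) and within 2500 bp of a TSS (0.127). The DRE, TATCGATA, a site of Dref and BEAF-32, was found in 9 summit windows and 2 flanks (exact adjusted p = 0.0769), or 1.47% of the summits beside 2.06% of the other IDR summits. GGTCACACT of the promoter factor M1BP had 2 summits and 0 flanks, or 0.327% of the summits beside 1.06% of the other IDR summits. GAGAGAG of the GAGA factor had 8 summits and 18 flanks (exact adjusted p = 0.165), or 1.31% of the summits beside 3.24% of the other IDR summits. CAGGTAG of the pioneer factor Zelda had 5 and 9 (exact adjusted p = 0.75), or 0.818% beside 0.997%.

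Words of 6 bases followed base composition. Of 2052 words tested within 50 bp of the summit or flank point 352 passed (17.2%), 156 of them higher at the summit and 196 higher in the flank. Without replicate 3 the count was 187. Among 36 words with no G or C, 35 were higher at the summit and 0 in the flank, and among 30 with 6 such bases 0 were higher at the summit and 11 in the flank. Words with 1 or 2 G or C bases and wide differences, singled out after their values were seen, were TAGTAA at 63 summits and 14 flanks (exact adjusted p = 1.81e-06), AACTAA at 99 and 35 (1.41e-06), CTATAC at 31 and 4 (0.000192) and AGTAAG at 34 and 8 (0.00106). In that order they stood at 10.3, 16.2, 5.07 and 5.56% of the near intergenic summits. The shares of the other IDR summits were 7.85, 11.6, 3.33 and 4.33%. CCACCC was found the other way round, at 5 summits and 43 flanks (exact adjusted p = 2.77e-07), or 0.818% of the summits beside 1.9% of the other IDR summits. The part of A+T content in the calls on words and on TATAAA and TAATTA was not tested.

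The CTCF consensus is rich in G and C. It was present at 14 of 611 near intergenic summits (2.29%) and at 1 of their flanks (0.164%), and at 0.289% of tiles (173 of 59950). Far intergenic summits held it in 3 cases (0.637%), intronic ones in 21 (0.698%), promoter ones in 34 (1.23%) and exonic ones in 9 of 183 (4.92%). Since it was chosen after the data were seen, these values are given without a test. The match lay a median of 23.5 bp from the summit and within 50 bp in 13 of 14. Signals of the 14 ran from 187 at wgn, a TNF receptor gene, to 2114 at jp, with a median of 346. They also included Gr89a (700, a gustatory receptor gene), sbr (357, the gene of an mRNA export factor), RabGGTa (349), Sqor (344), Sox21a (342), CG10232 (259), and the metabolic genes Ldh (256, lactate dehydrogenase) and Men (235, malic enzyme).

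Nearest genes were counted in 13 lists of developmental and chromatin genes, as a description with no test. The lists hold from 0.0789% (Hox genes and their cofactors) to 0.366% (developmental signals) of coding genes, which is a share of genes and not of intergenic sequence. Genes of developmental signals were nearest at 9 summits, 1.47% of the 611, beside 2.03% of the other IDR summits. The strongest were at fz (1101), at aop, the gene of an Ets repressor (1019 and 655), and at dpp, the gene of a BMP ligand (318). In the Notch pathway there were 5, at 4 genes (0.818%, beside 0.436% of the other summits). The strongest were at E(spl)m3-HLH and E(spl)m5-HLH, target genes of the pathway (472 and 454), and at the ubiquitin ligase gene mib1 (291 and 255). Mesoderm and muscle genes had 4 (0.655%, beside 0.81% of the other summits), at bin, the gene of a visceral mesoderm forkhead factor (948), and at Act57B (767), Act87E (460) and TpnC47D (447), genes of muscle proteins. Segmentation genes had 4 (0.655%, beside 0.374%), at slp2 (1117), bcd (245), D (220) and run (212). Axon guidance and synapse genes had 4 (0.655%, beside 0.795%), at Ten-m (537), robo2 (447), unc-5 (386) and the sodium channel gene para (204).

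The other lists held few or none. With 2 summits each, the lists of nuclear receptor, neural, tracheal and epidermal, and blood and fat body genes had 0.327% of the 611, beside 1.08, 0.39, 0.499 and 0.514% of the other IDR summits. The nuclear receptor summits were both at Hr38 (390 and 194), the neural ones at ey (210) and Lim1 (160), the tracheal and epidermal ones at trh (275) and verm (178), and those of blood and fat body at srp (277) and Lsp1beta (232). Polycomb and Trithorax genes had 1 (0.164%, beside 0.39%), at ph-d (1913), and insulator and promoter architecture genes 1 (0.164%, beside 0.14%), at zld (158). Hox genes and their cofactors had 0, beside 0.483% of the other IDR summits (31), and heat shock genes had 0, beside 0.156% (10). At such low shares few summits of either list would be found among 611.

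Just inside the 500 bp limit, summits 503 to 505 bp from the nearest TSS of any gene had 1026, 527 and 216. Their nearest coding genes were CG12402, CG3348 and CG9312. Just outside it, summits at 491 to 493 bp from such a TSS had 324, 281 and 243, with Npc2b, CG42329 and CG6602 as nearest coding genes. Just inside 5000 bp, those at Gr93b, Obp47a and CG11369 had 172, 179 and 206, and those beyond it, at CG11374, CG12464 and en, had 211, 223 and 176. Inside the limits the median distance was 1915 bp. A non-coding TSS was nearer than the coding one at 93 of the 611 summits, and 8 lay in an annotated transposable element. The median peak width was 339 bp.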

How the data were processed

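The authors deposited 4 narrowPeak lists on assembly dm6, per the labels and the text files deposited beside the samples: peaks of each replicate, peaks of both together (30000) and an IDR-thresholded list (7029). Each peak has a signal, as the authors deposited it, on an unstated scale. The deposited −log10 q-value was 4.2 for every IDR peak and was not used further. The sources used here do not give the aligner, the peak caller or the IDR threshold. The files hold no read totals, so the depth is unknown, and signals of the replicate lists, given side by side, may differ in scale. Tests on signal use 1 list only.

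Summits were placed on Ensembl release 115 genes (18164 without transposable elements, 13945 coding, 23998 TSSs, 6 arms) and on the RefSeq release 6 sequence. The members, lists, consensus sequences and tests were chosen with earlier results of these data known. A replicate's value is that of the overlapping peak (1 bp or more) with the nearest summit. Shares were compared by Fisher's exact test, densities by exact binomial tests and summit and flank windows by exact sign tests, all two-sided, with Benjamini-Hochberg adjustment within each family and a threshold of 0.05. Densities by gap type, by arm and against far sequence were compared after the data were seen. Words needed at least 10 discordant pairs. Intervals are Clopper-Pearson or exact Poisson. Genes named are those of the 25 strongest summits and of the strongest of each arm, up to 4 summits per gene list, 3 on each side of each limit, gaps with 3 or more summits and, chosen after their values were seen, CTCF matches and the widest replicate differences. Of the list names 29 matched no coding gene. The procedures were tested on simulated data. Calculations used Python 3.11.15, numpy 2.4.6, pandas 2.3.3, scipy 1.17.1 and matplotlib 3.10.9.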

Additional observations from a re-analysis of the deposited data

How the results depend on the processing

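Of 154 alternative values, 124 kept their side of the threshold, or stayed within 1.5 times for counts. A change of direction was not counted where neither value passed. For example, the odds ratio for both replicates against far intergenic summits went from 1.09 to 0.528 in the 3514 strongest peaks. The number of summits was 586 to 607 with 1 replicate left out, 280 in the 3514 strongest peaks and 381 within 2500 bp. With replicates left out, the odds ratio for bound promoters ran from 1.36 to 1.49, consensus sequences called from 3 to 4 and words called from 187 to 426. The odds ratio for both replicates against intronic summits was 0.77 on the strongest peaks of replicate 3 and 1.01 on those of replicate 2. Both of these values still count overlap with the other replicate's list. The cause of these differences was not tested.

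In the 3514 strongest peaks the odds ratio of A+T content, split at the median of those peaks, turned to 0.714 against intronic and 0.678 against promoter summits. There the odds ratio for both replicates against intronic summits was 0.324, divergent gaps exceeded tandem ones 1.22-fold, and 1 consensus sequence and 70 words were called. At 1000 bp from any TSS the odds ratios were 1.23 for signal against far summits, 1.46 for bound promoters and 1.33 for A+T against promoter summits, and the side ratio was 1.19. The density by distance has no value there, since no sequence remains at 500 to 1000 bp. Within 2500 bp the divergent to tandem ratio was 1.1, with 1 consensus sequence and 104 words called. Windows reaching 100 bp to each side gave an A+T odds ratio of 1.25 against promoter summits and 599 words, words of 8 bases gave 24 calls, a flank toward the TSS 4 consensus sequences, and a flank at 1000 bp 4 consensus sequences and 187 words. Alternatives on repeats, gap types, far sequence and the CTCF consensus were chosen after seeing the data. Samples could not be paired between groups because there is 1 group, and the only pairs used were those of a summit and its flank.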
